A study of Mus musculus with 2 samples.

Results

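The genes described here are 9 surface receptors that tune T cell activation, Ctla4, Cd28, Icos, Pdcd1, Tigit, Lag3, Tnfrsf18, Tnfrsf4 and Cd5, together with Foxp3, a transcription factor that marks regulatory T cells. They were chosen by symbol, through unversioned Ensembl identifiers, and all 10 were found among the 43346 genes of the deposited tables. The tissue was whole spleen from 8-week-old adults of C57BL/6J, a widely used inbred mouse strain. The labels name no treatment and number the samples as biological replicates 1 and 2, called library 1 and library 2, so no conditions could be compared. The labels speak of littermates of both sexes, leave the sex of each sample unrecorded, give both samples the same donor entry, and do not say whether the tissue of several animals was pooled. The spread between libraries may therefore be technical, and every mean ± SD below is over these libraries (n = 2).

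A T cell that meets antigen needs a second signal from costimulatory receptors. CD28 gives that signal when it binds CD80 or CD86 on an antigen-presenting cell, and ICOS, bound by ICOS ligand, sustains help to B cells in follicles. CTLA-4 competes with CD28 for the same ligands and is an inhibitory receptor, as are PD-1, TIGIT and LAG-3. These receptors are the checkpoints that antibodies block in cancer therapy. GITR, encoded by Tnfrsf18, and OX40, encoded by Tnfrsf4, belong to the tumour necrosis factor receptor superfamily and costimulate activated T cells. CD5 dampens antigen receptor signalling in T cells and in B-1 cells. Regulatory T cells depend on Foxp3 and carry CTLA-4, GITR and OX40 at high levels at rest.

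Several of these genes give more than one transcript, and the stretches at which the annotated transcripts part are printed here because the transcript shares below turn on them. Sequences are from GENCODE M21 transcripts on GRCm38, 5′ to 3′ on the plus strand. In Ctla4 the first line runs from the end of exon 2 to the start of exon 4, chr1:60912741-60914642, with exon 3 in capitals. In the second line, from Ctla4-202, exon 2 is joined to exon 4 directly and capitals mark the first bases of exon 4. Exon 3 is 110 bases long and encodes the membrane-spanning segment, so its loss gives the transcript of a soluble CTLA-4.
Ctla4-201: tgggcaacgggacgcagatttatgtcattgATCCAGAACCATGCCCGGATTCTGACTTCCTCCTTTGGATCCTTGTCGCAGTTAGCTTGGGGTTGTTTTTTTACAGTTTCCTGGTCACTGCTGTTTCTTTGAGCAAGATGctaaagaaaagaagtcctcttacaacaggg
Ctla4-202: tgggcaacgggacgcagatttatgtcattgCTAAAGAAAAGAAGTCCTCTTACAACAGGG

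In Tnfrsf18 the stretch is chr4:156028394-156028524. Capitals in Tnfrsf18-202 mark the first bases of exon 5, and capitals in Tnfrsf18-203 mark the 71-base last intron, which that transcript keeps inside its annotated reading frame.
Tnfrsf18-202: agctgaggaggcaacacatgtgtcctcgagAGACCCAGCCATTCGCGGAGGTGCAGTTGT
Tnfrsf18-203: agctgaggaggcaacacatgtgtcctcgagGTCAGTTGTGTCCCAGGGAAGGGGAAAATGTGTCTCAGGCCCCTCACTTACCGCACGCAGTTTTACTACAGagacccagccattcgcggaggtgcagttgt

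In Tnfrsf4 the stretch is chr4:156014980-156015415. Capitals in Tnfrsf4-201 mark the first bases of exon 4, and capitals in Tnfrsf4-203 mark 86 bases that this transcript, annotated without a reading frame, adds before exon 4.
Tnfrsf4-201: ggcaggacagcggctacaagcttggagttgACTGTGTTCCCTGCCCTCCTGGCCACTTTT
Tnfrsf4-203: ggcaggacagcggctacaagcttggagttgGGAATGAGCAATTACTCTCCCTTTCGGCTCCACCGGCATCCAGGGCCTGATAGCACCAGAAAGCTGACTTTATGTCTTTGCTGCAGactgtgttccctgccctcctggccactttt

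Expected counts, the authors' estimated reads per gene, came to 49686344 in library 1 and 51393345 in library 2. Levels are TPM, the deposited transcript abundance corrected for length and brought to a fixed total. The share of TPM in red cell genes was 19.5% in library 1 against 30.5% in library 2, and the median detected gene was 1.11-fold higher by TPM in library 1 (0.15 on the log2 scale). Ratios between libraries therefore use counts scaled by TMM, a trimmed mean of log ratios over all genes. All 15 T cell marker genes looked up exceeded 1 TPM in both libraries. So did all 10 B cell and all 8 macrophage markers, so this does not show which cells expressed the 10 genes. Cd3e, a subunit of the T cell receptor complex, had 36.8 TPM in library 1, against 38.5 TPM in library 2.

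All 10 genes exceeded 1 TPM in both libraries, the level taken here as detected. Their median level was 4.55 TPM, against 11.6 TPM for the 11572 protein-coding genes detected in both libraries. Mean levels spanned an 18.1-fold range, from Cd5 at 33.1 ± 3.50 TPM to Icos at 1.83 ± 0.170 TPM. In descending order of mean TPM they ran Cd5, Tnfrsf18, Tnfrsf4, Lag3, Foxp3, Tigit, Cd28, Pdcd1, Ctla4 and Icos. Between 4 pairs of neighbours in that order the values of the libraries overlapped: Cd5 with Tnfrsf18, Tnfrsf18 with Tnfrsf4, Foxp3 with Tigit, and Pdcd1 with Ctla4. Tnfrsf4 and Lag3 were set apart in both libraries, as were Lag3 and Foxp3, so the upper 4 genes stood above the other 6. Ctla4 lay above Icos in both libraries, with authors' intervals on TPM that overlapped in each.

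**Figure D1:**
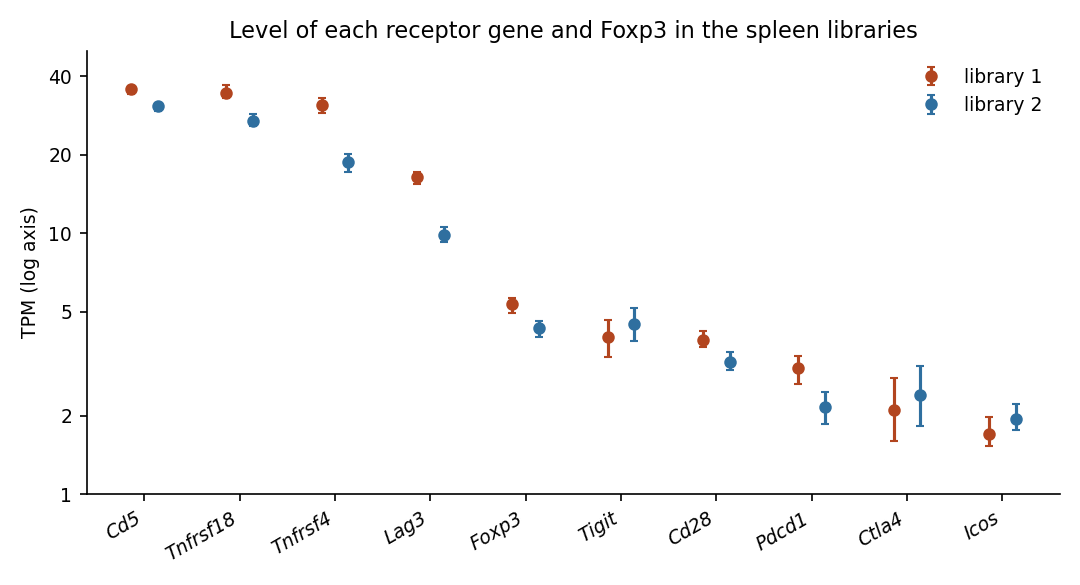
Level in TPM on a log axis of the 10 genes, ordered by mean, in library 1 (left point of each pair) and library 2 (right point), with the authors' deposited interval on each value, whose level is not stated. Cd5, Tnfrsf18, Tnfrsf4 and Lag3 lie between 9.84 and 35.6 TPM, and the other 6 genes between 1.71 and 5.34 TPM.

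Foxp3 (ENSMUSG00000039521, chrX:7573644-7595245, plus strand, GRCm38) measured 5.34 TPM in library 1 and 4.32 TPM in library 2, from 892 and 799 counts. The authors' intervals, 4.96 to 5.66 TPM in library 1 and 4.02 to 4.62 TPM in library 2, did not overlap. Here and for the genes below, such intervals are on TPM, which was 1.11-fold higher in library 1 for the median detected gene. A gap between them is therefore not a comparison on scaled counts, and the share of all genes with such a gap was not counted. After TMM scaling Foxp3 was 1.13-fold higher in library 1 (95% counting interval 1.03 to 1.25), past the threshold of 0.05 in an exact two-sided binomial test with Benjamini-Hochberg adjustment over all genes (adjusted p = 0.0262). That call was lost once the trend of the library ratio with GC content and length was removed (adjusted p = 0.521, exact binomial test).

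The 4 transcripts of Foxp3 in the tables share a coding region of 1287 bases and differ in their 5′ exons. Foxp3-203 led in both libraries, with 64.9% of the gene's TPM in library 1 and 69.8% in library 2. Foxp3-201 held 31.9% in library 1 and 18.8% in library 2, and Foxp3-202 held 2.49% in library 1 and 11.4% in library 2. The deposited intervals of all these transcripts overlapped between libraries, but they are on TPM and not on shares. Estimated counts were 275 in library 1 and 145 in library 2 for Foxp3-201, with deposited SDs of 46.2 and 47.8. For Foxp3-202 they were 22.2 and 90.6, with SDs of 23.6 and 30.2. A shift among the 5′ exons was not tested. Foxp3-204, at 0.74% in library 1, was listed at 0 in library 2.

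Cd28 (ENSMUSG00000026012, chr1:60716800-60773359, plus strand), the main costimulatory receptor of naive T cells, measured 3.9 TPM in library 1 and 3.21 TPM in library 2, from 772 and 695 counts. Its fold was 1.13 (95% counting interval 1.01 to 1.25), with an adjusted p of 0.0488 in the exact binomial test with Benjamini-Hochberg adjustment, close to the threshold. Cd28 has the lowest GC content of the 10 genes, 41.0%, and with the GC and length trend removed its log2 ratio was 0.37, against 0.17 before. Cd28-201, which encodes the full receptor, held 99.0% of the gene's TPM in library 1 and 98.3% in library 2.

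Icos (ENSMUSG00000026009, chr1:60977927-61000320, plus strand), the costimulatory receptor of follicular helper T cells, measured 1.71 TPM in library 1 and 1.95 TPM in library 2, from 250 and 313 counts. It was 0.809 times as high in library 1 (95% counting interval 0.682 to 0.959; adjusted p = 0.0274, exact binomial test with Benjamini-Hochberg adjustment). Neither scaling by total counts (adjusted p = 0.0502, exact binomial test) nor removal of the GC and length trend (adjusted p = 0.350, exact binomial test) left it past the threshold. All its counts went to Icos-202.

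Ctla4 (ENSMUSG00000026011, chr1:60887000-60915832, plus strand) measured 2.11 TPM in library 1 and 2.40 TPM in library 2, from 126 and 132 counts, the smallest counts of the set. The authors' intervals, 1.6 to 2.80 TPM in library 1 and 1.83 to 3.09 TPM in library 2, overlapped over most of their length. No difference was detectable at this depth: the fold was 0.967, with a 95% counting interval of 0.752 to 1.24.

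Ctla4 was the 1 gene of the 10 whose leading transcript differed between libraries. Ctla4-201, which holds exon 3, had 63.8% of the gene's TPM in library 1 and 47.6% in library 2. Ctla4-202, which skips exon 3, had 36.2% in library 1 and 52.4% in library 2. In counts the order was the same in both libraries, with 111 and 104 for Ctla4-201 against 14.7 and 27.6 for Ctla4-202.

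The gap between shares of TPM and shares of counts follows the table's lengths, 1933 bases for Ctla4-201 and 614 bases for Ctla4-202, since TPM divides counts by length. The authors' intervals for Ctla4-202, 0.187 to 1.43 TPM in library 1 and 0.607 to 1.93 TPM in library 2, overlapped. Those of Ctla4-201 did too. These intervals are on TPM and not on shares, and the change of leading transcript was not tested. Both libraries held estimated reads of the transcript without exon 3.

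**Figure D2:**
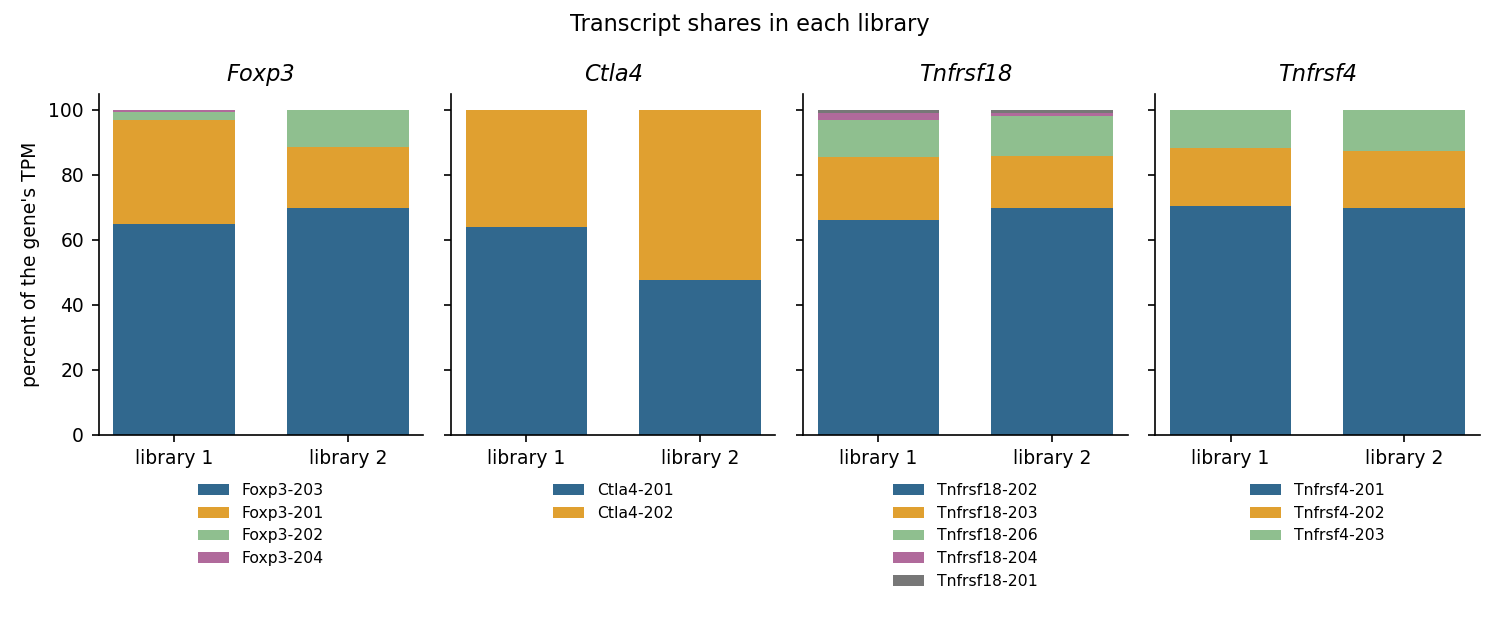
Percent of each gene's TPM held by its transcripts in library 1 (left bar) and library 2 (right bar) for Foxp3, Ctla4, Tnfrsf18 and Tnfrsf4. The leading transcript is the same in both libraries except in Ctla4, where Ctla4-201 falls below the share of Ctla4-202 in library 2 (47.6% and 52.4%).

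Pdcd1 (ENSMUSG00000026285, chr1:94038305-94052553, minus strand), which encodes PD-1, measured 3.04 TPM in library 1 and 2.16 TPM in library 2, from 251 counts and 197 counts. The authors' intervals, on TPM without TMM scaling, did not overlap. After TMM scaling the fold was 1.29 (95% counting interval 1.07 to 1.56, adjusted p = 0.0181, exact binomial test with Benjamini-Hochberg adjustment). With the GC and length trend removed the adjusted p of the exact binomial test was 0.0687. Its only transcript in the tables is Pdcd1-201.

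Tigit (ENSMUSG00000071552, chr16:43648867-43664146, minus strand), an inhibitory receptor of T and NK cells for the ligand encoded by Pvr, measured 4.02 TPM in library 1 and 4.51 TPM in library 2, from 145 and 182 counts. Its fold of 0.807 had a 95% counting interval of 0.644 to 1.01, and the exact binomial test with Benjamini-Hochberg adjustment gave an adjusted p of 0.106. That interval holds both no difference and a fold as low as the one of Icos.

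Lag3 (ENSMUSG00000030124, chr6:124904361-124911705, minus strand), an inhibitory receptor for MHC class II, measured 16.4 TPM in library 1 and 9.84 TPM in library 2, from 1409 and 936 counts. The authors' intervals, 15.5 to 17.2 TPM in library 1 and 9.24 to 10.6 TPM in library 2, lay well apart. Lag3 had the largest ratio of the 10 genes, 1.53-fold higher in library 1 (95% counting interval 1.40 to 1.66; adjusted p = 7.0e-23, exact binomial test with Benjamini-Hochberg adjustment). It also has the highest GC content of the set, 59.3%, and with the GC and length trend removed its log2 ratio was 0.43, against 0.61 before (adjusted p = 6.2e-12, exact binomial test). All its counts went to Lag3-201, which encodes the receptor.

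Tnfrsf4 (ENSMUSG00000029075, chr4:156013843-156016612, plus strand) measured 31.0 TPM in library 1 and 18.7 TPM in library 2, from 1074 and 728 counts. The authors' intervals, 28.8 to 32.9 TPM in library 1 and 17.2 to 20.2 TPM in library 2, did not overlap. OX40 transcripts were 1.5-fold higher in library 1 (95% counting interval 1.36 to 1.64; adjusted p = 2.9e-16, exact binomial test with Benjamini-Hochberg adjustment), and the log2 ratio of 0.58 became 0.52 with the GC and length trend removed.

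Tnfrsf18 (ENSMUSG00000041954, chr4:156026164-156028895, plus strand) measured 34.4 TPM in library 1 and 26.9 TPM in library 2, from 1556 and 1369 counts. Its fold was smaller, at 1.15 (95% counting interval 1.07 to 1.24; adjusted p = 0.000468, exact binomial test with Benjamini-Hochberg adjustment). With the GC and length trend removed the adjusted p of the exact test was 0.0716.

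The 2 genes of this receptor pair were also spread over several transcripts in like proportions in both libraries. Tnfrsf18-202, which encodes the full receptor, held 66.1% of the gene's TPM in library 1 and 69.7% in library 2. Tnfrsf18-203, with the last intron kept and 942 annotated coding bases in place of 684, held 19.5% in library 1 and 16.1% in library 2. Tnfrsf18-206, annotated as a retained intron transcript that keeps an intron of 171 bases, held 11.3% in library 1 and 12.3% in library 2.

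In Tnfrsf4 the protein-coding Tnfrsf4-201 held 70.3% of TPM in library 1, against 69.7% in library 2. The rest of TPM, 29.7% in library 1 and 30.3% in library 2, was assigned to Tnfrsf4-202 and Tnfrsf4-203, neither annotated as protein-coding. By counts their part was smaller, since TPM divides by length and Tnfrsf4-202 has only 459 bases. Tnfrsf4-202 held 6.17% of the gene's counts in library 1 and 6.28% in library 2, against 18.1% and 17.7% of TPM. Tnfrsf4-203 held 14.2% of counts in library 1 and 15.2% in library 2. For Tnfrsf18 the share of TPM outside protein-coding transcripts was 13.3% in both libraries.

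**Figure D3:**
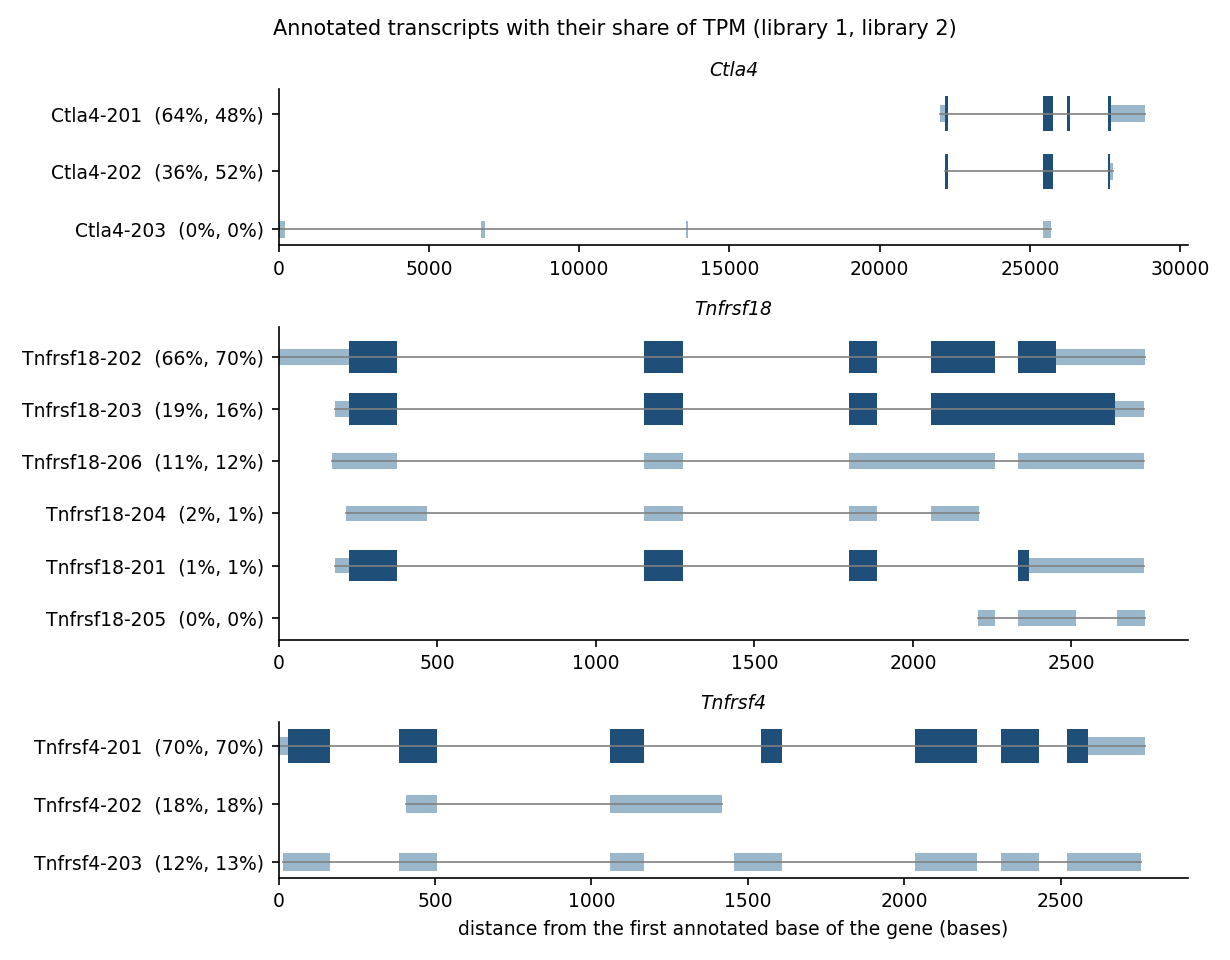
Annotated transcripts of Ctla4, Tnfrsf18 and Tnfrsf4 by distance in bases from the gene's first annotated base, with coding parts as tall dark boxes, other exon parts as low pale boxes and introns as lines. The percentages beside each name are the transcript's share of the gene's TPM in library 1 and then library 2. Ctla4-202 lacks the 110-base exon 3, Tnfrsf18-203 keeps the last intron, and Tnfrsf4-202 and Tnfrsf4-203 have no coding part.

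Cd5 (ENSMUSG00000024669, chr19:10717116-10739002, minus strand), the most abundant gene of the set, measured 35.6 TPM in library 1 and 30.6 TPM in library 2, from 3179 and 3023 counts. Its fold of 1.07 (95% counting interval 1.01 to 1.12) passed the exact binomial test with Benjamini-Hochberg adjustment (adjusted p = 0.0273), and with the GC and length trend removed its log2 ratio was 0.01. B cells of the B-1 type also carry CD5. Of the other B-1 cell genes, Bhlhe41, a transcription factor of these cells, measured 7.25 TPM in library 1 and 5.0 TPM in library 2, and was called higher in library 1 (log2 ratio 0.60). Cd9 (-0.12) and Spn (-0.10), the most abundant of them, were called lower, and Zbtb32 (-0.07) was not called. The share of Cd5 that came from B cells was not tested.

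Counted together, 8 of the 10 genes passed the exact binomial test, 7 with higher counts in library 1 and 1, Icos, with lower. Among all 17547 genes tested the share called was 50.7%, made up of 26.6% with higher counts in library 1 and 24.1% with lower. Among 8953 genes with total counts in the range of the set, 258 to 6202, a range chosen after the values were seen, 56.9% were called. With the GC and length trend removed only 3 of the 10 genes were called, Cd28, Lag3 and Tnfrsf4, all higher in library 1, against 46.3% of all genes that had a GC value.

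The median log2 ratio of the set was 0.17, against -0.00499 for all genes tested, and 0.10 with the trend removed. The median absolute log2 ratio was 0.25 in the set and 0.25 over all genes tested, but 0.21 over the genes in the same range of total counts and 0.20 over genes detected in both libraries. Lag3 was the 1 gene both called and past 1.5-fold, with Tnfrsf4 just under that limit, and this class holds 12.7% of all genes tested. These tests compare the libraries and not conditions, with no replicate check of any ratio.

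**Figure D4:**
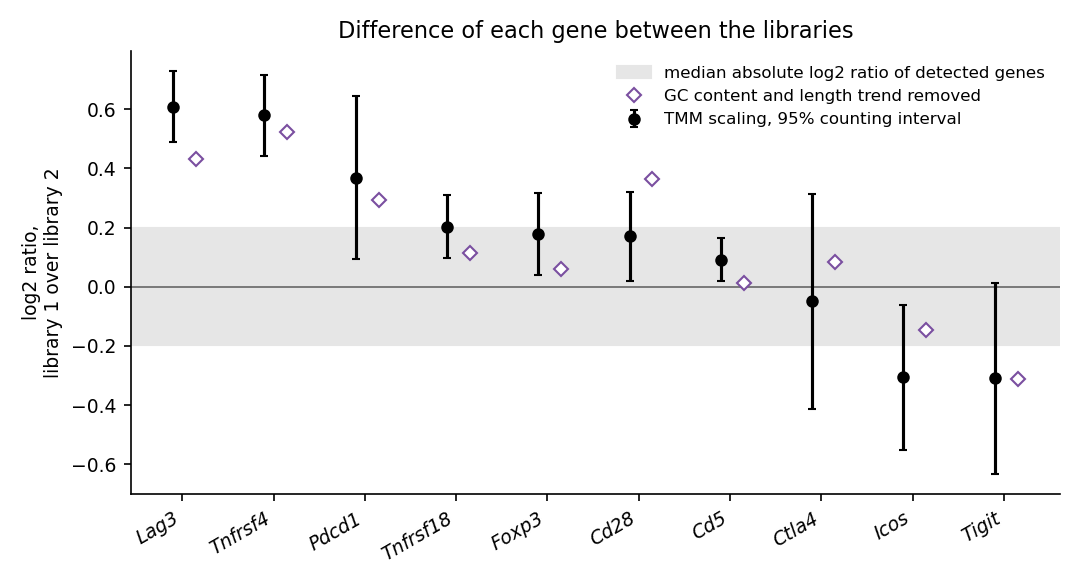
Log2 ratio of library 1 over library 2 for each gene, as filled points with 95% counting intervals after TMM scaling and as open diamonds with the GC content and length trend removed. The grey band marks the median absolute log2 ratio of genes detected in both libraries (0.20 on either side of 0). Lag3, Tnfrsf4 and Pdcd1 lie above the band by both measures and Cd28 by the second, Tigit lies below it by both, and Foxp3, Cd5 and Ctla4 lie within it by both.

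Levels per T cell reference gene were taken within each library, as ratios of TPM to Cd3e. Cd5 was at 0.967 of the Cd3e level in library 1 and 0.795 in library 2. Tnfrsf18 stood at 0.936 in library 1 and 0.699 in library 2, and Tnfrsf4 at 0.842 in library 1 and 0.485 in library 2. All 3 were below Cd3e, a transcript that every mature T cell holds, in both libraries.

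Lag3 stood at 0.445 of Cd3e in library 1 and 0.256 in library 2, the widest relative gap of the set, with that of Tnfrsf4 close behind. The others were between 0.0465 (Icos) and 0.145 (Foxp3) in library 1 and between 0.0507 (Icos) and 0.117 (Tigit) in library 2. In bulk tissue, fewer cells of a type and less RNA per cell cannot be told apart, so these ratios are not shares of T cells.

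Against Foxp3, the level of Tnfrsf18 was 6.45-fold in library 1 and 6.23-fold in library 2, and that of Cd28 was 0.730 in library 1 and 0.743 in library 2. Those ratios moved little between libraries. Tnfrsf4 was at 5.80-fold the level of Foxp3 in library 1 and 4.32-fold in library 2, and Lag3 at 3.07-fold in library 1 and 2.28-fold in library 2. Pdcd1 was also lower against Foxp3 in library 2. Ctla4, at 0.395 of Foxp3 in library 1 and 0.556 in library 2, went the other way. So did Icos (0.320 in library 1, 0.451 in library 2), Tigit (0.753 and 1.04) and Cd5 (6.66 and 7.09). Ctla4 had only 126 and 132 counts. Its gene length, by which TPM divides counts, was 1456 bases in library 1 and 1242 bases in library 2.

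Genes of related function were read beside the set, from lists drawn up with earlier results of these data known. The counts for these lists stand beside 26.6% of all genes tested called higher in library 1 and 24.1% called lower. With the GC and length trend removed 46.3% were called in either direction. No list was tested as a whole. Of 12 other regulatory T cell genes, the exact binomial test called 5 higher in library 1 and none lower, and 4 higher and 1 lower with the GC and length trend removed. Their median log2 ratio was 0.21. Ccr8, a chemokine receptor of activated regulatory T cells, had the largest ratio, with 1.63 TPM in library 1 and 0.71 TPM in library 2 from 74 and 36 counts. The most abundant genes of that list, Capg (118 TPM in library 1, 113 TPM in library 2) and Ebi3 (39.7 TPM in library 1, 32.2 TPM in library 2), are also expressed by myeloid cells. Il10 was lowest, with 0.15 TPM in library 1 against 0.10 TPM in library 2.

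T cell markers went the other way on balance: of 15, 3 were called higher and 8 lower in library 1, with a median log2 ratio of -0.06. Cd2, an adhesion receptor, had the largest called ratio among them, -0.52 on the log2 scale, with 34.5 TPM in library 1 against 45.2 TPM in library 2. Cd8a had 17.1 TPM in library 1 against 19.7 TPM in library 2, and Cd4 had 32.3 TPM in library 1 against 30.8 TPM in library 2. The 3 markers called higher in library 1 were Zap70 (log2 ratio 0.36) and Lat (0.25), which act in signalling from the T cell receptor, and Trbc1 (0.11), a constant segment of that receptor. Cd3e (-0.20) and Cd8a (-0.32) were among those called lower. On scaled counts Cd4 had a log2 ratio of -0.06 and was not called, although its TPM was higher in library 1. What part of the library ratios of the 10 genes goes with T cell content was not tested.

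Ligands of the receptors were measured too. None of 9 tested was called higher in library 1 and 5 were called lower, also with the GC and length trend removed, and their median log2 ratio was -0.19. Icosl, the ligand of ICOS, was the most abundant, with 54.9 TPM in library 1 against 57.6 TPM in library 2, far above its receptor. Nectin2, a ligand in the TIGIT network, followed with 20.3 TPM in library 1 against 21.2 TPM in library 2. Tnfsf4, the OX40 ligand, was almost undetected, with 1 count in library 1 and 10 counts in library 2, at 0.01 and 0.12 TPM.

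**Figure D5:**
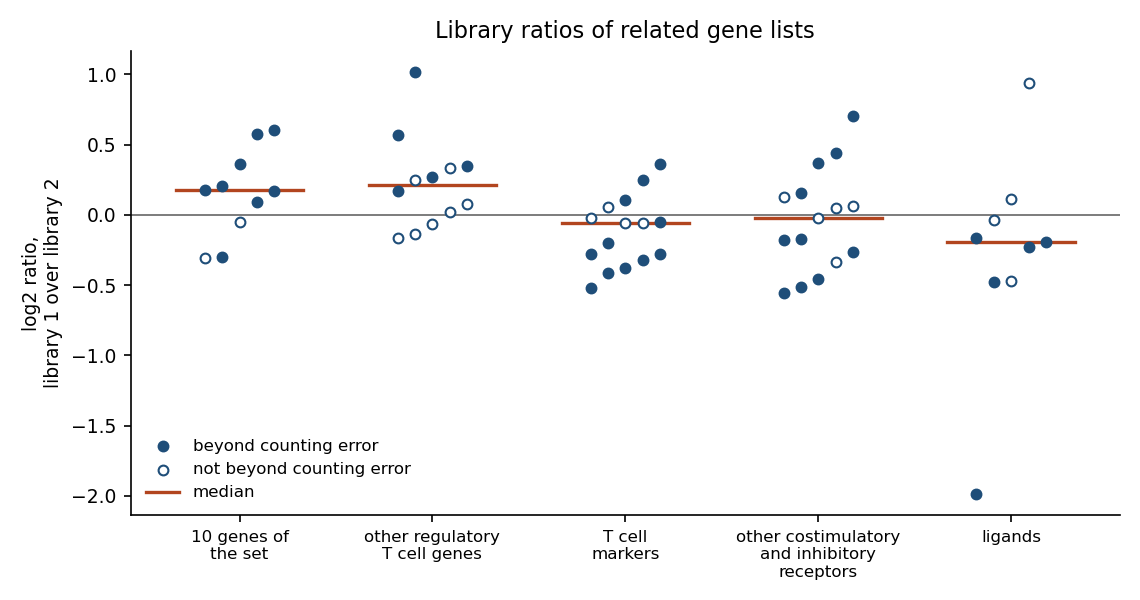
Log2 ratio of library 1 over library 2 for the genes of 5 lists with 10 or more counts, with filled points for genes beyond counting error in the exact binomial test, open points for the others, and a line at each list's median. Medians lie at 0.17 for the 10 genes, 0.21 for other regulatory T cell genes, -0.06 for T cell markers, -0.02 for other receptors and -0.19 for ligands.

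Among 15 other costimulatory and inhibitory receptors 4 were called higher and 6 lower in library 1 (median log2 ratio -0.02). Tnfrsf14 (202 TPM in library 1, 218 TPM in library 2) and Vsir (140 TPM in library 1, 142 TPM in library 2), receptors that B cells and myeloid cells also express, were the most abundant and exceeded every gene of the set. Tnfrsf9, another costimulatory receptor of the tumour necrosis factor receptor superfamily, had the largest called ratio, with 3.55 TPM in library 1 and 1.89 TPM in library 2. Klrg1 was lowest, with 1.11 TPM in library 1 against 0.97 TPM in library 2.

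Of 20 signalling partners 9 were called higher and 4 lower in library 1 (median 0.04), but 3 higher and 6 lower with the GC and length trend removed. The phosphatase Ptpn6 was the most abundant, with 299.6 TPM in library 1 against 254 TPM in library 2. Of 11 follicular helper and activation genes tested 5 were called higher and 1 lower in library 1 (median 0.16). The 5 were Cxcr5, Bcl6, Tox2, Nr4a1 and Egr2, and Cxcr5 was the most abundant (127 TPM in library 1, 107 TPM in library 2). Cd69 (log2 ratio -0.37) was the 1 called lower, and none was called lower with the GC and length trend removed. Sh2d1a (-0.31), Tox (0.03), Cd44 (-0.05), Il2 (1.47) and Ifng (0.75) were not called, and Il21, below the count filter, had 1 count in each library. Which cells these transcripts came from was not tested. Tox2, a nuclear factor of follicular helper T cells, had the largest called ratio, with 15.2 TPM in library 1 and 10.9 TPM in library 2.

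Cells other than T cells also express some of the 10 genes, and their markers differed between the libraries. NK cells carry Lag3 and Tigit: of 8 NK markers 1 was called higher and 4 lower in library 1, with a median log2 ratio of -0.48. Their summed level was 129 TPM in library 1 and 128 TPM in library 2, most of it from Nkg7, and Klrb1c had the largest called ratio (-1.32). Plasmacytoid dendritic cells carry Lag3: of 7 markers 3 were called higher and 4 lower, with a median log2 ratio of -0.17. Their sums of 2756 TPM in library 1 against 2418 TPM in library 2 rested mostly on Ly6d and Klk1. B cells also express Ly6d (1388 TPM in library 1, 1052 TPM in library 2). Klk1 measured 838 TPM in library 1 and 906 TPM in library 2, and which cells its transcripts came from was not tested. For B cells 4 of 10 markers were called higher and 6 lower, with a median log2 ratio of -0.10. Cd79a (1130 TPM in library 1, 863 TPM in library 2) made up most of the gap between their sums, 2493 TPM in library 1 against 2219 TPM in library 2. Of 6 B-1 cell genes 2 were called higher and 2 lower, with Ctla4 and Cd5 themselves in that list.

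Conventional dendritic cells had 1 of 7 markers called higher and 4 lower in library 1 (median log2 ratio -0.26), with sums of 46.4 TPM in library 1 and 48.3 TPM in library 2, and macrophages 0 of 8 higher and 7 lower (median -0.64), with sums of 1180 TPM in library 1 and 1369 TPM in library 2. All 6 red cell genes were lower in library 1. Exocrine pancreas genes held 8.41% of TPM in library 1, against 6.74% in library 2, with Ctrb1 called higher and the other 7 lower (median -0.14). No marker of any of these lists was at 0 in both libraries. The part of these cells in the levels or ratios of the 10 genes was not tested.

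By position, 3 of the genes lie in a row on the plus strand of chromosome 1, Cd28, Ctla4 and Icos, with gaps of 113640 and 62094 bases. Their log2 ratios, 0.17 for Cd28, -0.05 for Ctla4 and -0.30 for Icos, did not share a direction. Tnfrsf4 and Tnfrsf18 lie 9551 bases apart on the plus strand of chromosome 4, both with higher counts in library 1. Sdf4, which ends 232 bases before Tnfrsf4, was called lower in library 1 (log2 ratio -0.16).

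The protein-coding gene nearest to Lag3, Ptms, lies 1975 bases away on the same strand and was called higher in library 1 too (log2 ratio 0.15, adjusted p = 2.4e-11, exact binomial test with Benjamini-Hochberg adjustment). On the other side Cd4 lies 16139 bases from Lag3, also on the same strand, and its log2 ratio was -0.06 and did not pass the test (adjusted p = 0.10, exact binomial test with Benjamini-Hochberg adjustment). By its gene span in GENCODE M21, Foxp3 overlaps Ppp1r3f, Ccdc22 and Gm36995 on the opposite strand and Flicr on the same strand. That span begins at position 7573644, ahead of the RefSeq start sites of Foxp3 at 7579676 and 7580483. Whether each overlap reaches the Foxp3 transcripts that were counted was not examined. Ppp1r3f measured 6.17 TPM in library 1 and 3.65 TPM in library 2, and Ccdc22 measured 18.1 TPM in library 1 and 13.8 TPM in library 2. Gm36995 had 196 counts in library 1 and 205 counts in library 2, and Flicr had 31 counts in library 1 and 28 counts in library 2. Tnfrsf18 overlaps the antisense gene Gm16008, with 4.21 TPM in library 1 against 3.33 TPM in library 2. Ctla4 overlaps the pseudogene Rpl18-ps1, with 30.2 counts in library 1 against 19.7 counts in library 2, and Icos overlaps Gm37039, with 8 counts in library 1 against 32 counts in library 2, both on the same strand. The sources used here do not give the strand setting of the counting, and the division of reads between overlapping genes is uncertain.

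RefSeq promoter windows on GRCm38.p6, running from 250 bases before to 50 bases after a start site, matched 7 of the 10 genes with 8 windows, and not Cd28, Icos and Lag3. Both strands were searched for short motifs. The core sequence bound by NFAT, the calcium-driven factor of T cell activation, is GGAAA, and it occurred in 8 of 8 windows, against 61.3% of all 32851 RefSeq promoters. The letters CCAAT occurred in 3 windows, against 37.4% of all promoters, and can share bases with the NFAT core. A TATA box, searched as TATAAA, occurred in 1 window of Foxp3, at position -32 from the start site, and in that of Ctla4, at position 41 after it, against 13.6% of all promoters. A GC box, searched as GGGCGG, occurred in that of Pdcd1, against 35.7%. An AP-1 site, searched as TGACTCA, was in no window, against 5.2%.

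The windows of the neighbouring pair Tnfrsf18 (chr4:156026072-156026371) and Tnfrsf4 (chr4:156013445-156013744), both plus strand, are shown because these are the most abundant costimulatory receptors among the 10 genes. Capitals mark GGAAA or its reverse complement TTTCC. Tnfrsf18 has matches at positions -195 and -61 from its start site and Tnfrsf4 at -220. A match is a string of letters and does not show that a factor binds.
Tnfrsf18 window: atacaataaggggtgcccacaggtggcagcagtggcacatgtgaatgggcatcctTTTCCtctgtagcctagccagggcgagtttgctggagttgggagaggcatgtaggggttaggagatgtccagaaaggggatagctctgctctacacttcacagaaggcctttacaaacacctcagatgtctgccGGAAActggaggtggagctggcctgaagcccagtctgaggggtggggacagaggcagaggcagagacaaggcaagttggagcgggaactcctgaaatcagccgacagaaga
Tnfrsf4 window: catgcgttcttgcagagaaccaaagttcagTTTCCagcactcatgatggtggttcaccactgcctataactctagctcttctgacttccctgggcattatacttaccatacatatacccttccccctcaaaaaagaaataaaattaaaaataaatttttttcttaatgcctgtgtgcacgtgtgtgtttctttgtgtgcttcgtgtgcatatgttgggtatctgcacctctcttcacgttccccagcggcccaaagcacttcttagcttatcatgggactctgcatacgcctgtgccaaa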

How the data were processed

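Gene and transcript tables of poly(A) RNA from spleen, sequenced from both ends with reads of 76 nucleotides, were used for both libraries. Per the deposited notes, values come from alignments to the transcriptome on mm10 with GENCODE M4. Which aligner, quantifier, software versions and strand setting were used is not stated in those notes or in the labels. As deposited, expected counts, including posterior mean counts, are estimated reads and need not be whole. The authors' TPM, FPKM and isoform percent values are deposited already scaled. The level of the deposited intervals on TPM is not stated.

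Symbols and positions were taken from GENCODE M21 on the same GRCm38 assembly, which matched 42462 of 43346 identifiers, and 22 of the 26 transcripts of the 10 genes have the same length there. Expected counts were rounded to whole numbers, and spike-ins and other entries left out. TMM factors came from edgeR 4.0.16 under R 4.3.3, and DESeq2 1.42.0 gave alternative size factors. Genes with 10 or more counts in total were compared by an exact two-sided binomial test against the scaled share, with Benjamini-Hochberg adjustment over all 17547 and a threshold of 0.05. Log2 ratios, library 1 over library 2, use a prior count of 2, and folds use none. The GC content and length trend is a smoothed curve of the log2 ratio over genes with 50 or more counts, which shifted each gene's expected share. The test was run on simulated counts with counting error alone apart from changes put in, which is the setting it assumes. That check cannot show how the test behaves on these libraries, whose chi-square statistic over degrees of freedom was 129.7. Intervals cover counting error only, since reads are not independent molecules, and a count of 0 allows up to 3 counts. The 10 genes, the context lists and the tests were chosen with earlier results of these data known. All 10 genes are named, and from each list the 2 most abundant genes, the lowest, and the largest called ratio. The text gives only some of these for lists of other cell types. Lists of splice junctions and contigs on mm9 were not used here. Remaining steps ran in Python 3.11.15, with scipy 1.17.1, numpy 2.4.6 and pandas 2.3.3.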

Additional observations from a re-analysis of the deposited data

How the results depend on the processing

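Removing the GC content and length trend changed the most: 3 of the 10 genes were called in place of 8, and 3 in place of 7 were called higher in library 1. The log2 ratio lost its call for Foxp3 (0.0604), Icos (-0.15), Pdcd1 (0.29), Tnfrsf18 (0.11) and Cd5 (0.0113), and that of Ctla4, never called, turned to 0.0819. Without a filter on low counts Cd28 lost its call (log2 ratio 0.17, adjusted p = 0.0589 by the exact binomial test with Benjamini-Hochberg adjustment), and with scaling by total counts Icos did (-0.27). The cause was not tested. Size factors of DESeq2, posterior mean counts and a minimum of 50 counts kept every direction and call for which they were run. A prior count of 0.5 kept every direction, and it could not change a call because the test does not use it.

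TPM rescaled without red cell, exocrine pancreas, spike-in and mitochondrial entries, which leaves fewer entries to share the total, was 7.34 for Foxp3, 3.47 for Ctla4, 5.40 for Cd28, 2.82 for Icos, 3.93 for Pdcd1, 6.56 for Tigit, 19.7 for Lag3, 46.5 for Tnfrsf18, 37.3 for Tnfrsf4 and 50.4 for Cd5. Ratios to the summed Cd3d, Cd3e and Cd3g in place of Cd3e, smaller by construction, were 0.0671 for Foxp3, 0.0311 for Ctla4, 0.0494 for Cd28, 0.0252 for Icos, 0.0362 for Pdcd1, 0.0588 for Tigit, 0.183 for Lag3, 0.427 for Tnfrsf18, 0.347 for Tnfrsf4 and 0.459 for Cd5. From posterior mean TPM the leading share was 96.99% for Cd28-201, 97.8% for Icos-202, 99.1% for Lag3-201 and 69.5% for Tnfrsf4-201. Deposited FPKM, posterior mean TPM and sums over transcripts moved no level beyond 1 SD, and leaving out either replicate gives the other library's value. No paired analysis was possible because the labels give a single group. Counts of 126 to 313 in Ctla4, Icos, Pdcd1 and Tigit limit what can be seen in those genes.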
